A study of Homo sapiens with 18 samples.

Results

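The PFKFB genes encode the 4 human bifunctional enzymes that make and remove fructose 2,6-bisphosphate, and their mRNA levels are described here in 3 human cell lines at normal and low oxygen. The members were taken by gene symbol from the deposited count files, and PFKFB1, PFKFB2, PFKFB3 and PFKFB4 are 4 of the 23106 genes listed there. In this study of how hypoxia-inducible factor (HIF) acts in different cells, polyadenylated RNA was sequenced from 3 lines, HKC-8, RCC4 and HepG2, each kept in normal or in low oxygen, with 3 samples in each of 6 groups. HKC-8 is a line from the proximal tubule of the kidney, and its hypoxic cells are labelled 0.5% oxygen for 16 h, although their sample titles read 0.1, and its normoxic samples are titled 21. The RCC4 line comes from a clear cell kidney cancer that lost VHL, the protein that marks HIF-alpha subunits for destruction in oxygenated cells, and the cells used here carry a stably transfected wild-type VHL; they are written RCC4+VHL below, and their labels give 1% oxygen for 24 h, whereas the published article states a single exposure, that labelled for the other lines, for the RNA of each line. HepG2 is a line from a hepatocellular carcinoma, and its hypoxic cells are labelled 0.5% oxygen for 16 h. Total counts ran from 81597396 to 84593123 per sample in normoxic HKC-8 cells and from 75441764 to 97984260 in hypoxic ones. They ran from 42045335 to 49594033 and from 50103970 to 51794355 in normoxic and hypoxic RCC4+VHL cells, and from 41511343 to 43957815 and from 40915980 to 48355303 in normoxic and hypoxic HepG2 cells. Each HKC-8 sample was spread over 2 sequencing lanes. The labels do not say that the replicates are separate cultures, so the p-values below measure the spread between these samples, which may be technical.

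Each PFKFB enzyme joins a kinase domain, which makes fructose 2,6-bisphosphate from fructose 6-phosphate, to a phosphatase domain, which turns it back. Fructose 2,6-bisphosphate is the strongest known activator of phosphofructokinase 1 (PFK-1), the enzyme that commits sugar to glycolysis, and it inhibits fructose 1,6-bisphosphatase, which runs the same step backwards in gluconeogenesis. PFKFB1 is the isoform of liver and muscle, PFKFB2 that of heart and kidney, PFKFB3 is a widely expressed inducible isoform whose kinase activity far exceeds its phosphatase activity, and PFKFB4 was first described in testis; PFKFB3 and PFKFB4 are well-known targets of HIF.

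The labelled cell types were read against marker genes. HepG2 cells expressed all 10 hepatocyte markers at 1 CPM or more (CPM are counts scaled to the size of each library, with TMM factors), with ALB, the gene of serum albumin, at 10720 ± 911 CPM (SD, n = 3) in normoxia. In HKC-8 cells none of the 10 reached 1 CPM, and in RCC4+VHL cells 1 did, SERPINA1. PAX8, a transcription factor of the kidney lineage, stood at 165 ± 23.9 CPM in normoxic HKC-8 cells, at 132 ± 4.81 CPM in RCC4+VHL cells and at 9.43 ± 0.625 CPM in HepG2 cells (SD, n = 3 each). LRP2 and CUBN, which encode the uptake receptors of the proximal tubule, were below 1 CPM in every group, and LRP2 had no count in any normoxic HKC-8 sample. Of the 11 renal tubule markers, 4 reached 1 CPM in normoxic HKC-8 cells, 7 in RCC4+VHL cells and 5 in HepG2 cells. Markers of other cell types were also read. The 5 endothelial genes together summed to 1.98 ± 0.330, 0.0420 ± 0.0203 and 1.99 ± 0.361 CPM in normoxic HKC-8, RCC4+VHL and HepG2 cells, and PECAM1 and KDR had no count in the first of these. The 5 leukocyte genes summed to 8.88 ± 1.27, 11.6 ± 1.38 and 51.0 ± 2.23 CPM, with CD68 the most abundant of them in each line, and CD3E had no count in any normoxic sample. The 6 fibroblast genes summed to 15.7 ± 4.38, 46.1 ± 2.86 and 28.2 ± 1.54 CPM, with PDGFRB the most abundant of them in each line (SD, n = 3 each). In hypoxia the fibroblast sums were 24.5 ± 1.95, 64.8 ± 1.71 and 67.4 ± 4.27 CPM in HKC-8, RCC4+VHL and HepG2 cells (SD, n = 3 each), and most of the rise lay in PDGFRB alone, which went from 7.22 to 17.1, from 43.6 to 62.7 and from 21.7 to 58.0 CPM. The hypoxic endothelial sums were 3.25 ± 0.661, 0.0682 ± 0.0316 and 2.50 ± 0.645 CPM, and the leukocyte sums 8.46 ± 2.21, 13.3 ± 0.760 and 65.8 ± 4.27 CPM. Hepatocyte marker sums went from 0.335 ± 0.0660 to 0.406 ± 0.137 CPM in HKC-8 cells and from 10.5 ± 0.478 to 9.90 ± 1.17 CPM in RCC4+VHL cells. In HepG2 cells they went from 38990 ± 883 to 46610 ± 1816 CPM (SD, n = 3 each). The renal tubule sums went from 187 ± 22.5 to 175 ± 14.6 CPM in HKC-8 cells, from 975 ± 19.2 to 845 ± 33.0 CPM in RCC4+VHL cells and from 312 ± 8.15 to 361 ± 5.62 CPM in HepG2 cells (SD, n = 3 each).

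PFKFB3, the inducible isoform with the strongest kinase, is annotated on GRCh37 at chromosome 10, 6186897 to 6296607, plus strand. Its main coding transcript has 15 exons and 520 codons. The RefSeq promoter table (build GRCh38.p14) holds 300 bases around each annotated start, 250 before it and 50 after, and has entries for 3 of the 4 members, PFKFB1, PFKFB3 and PFKFB4, and none for PFKFB2. It lists 2 such windows for PFKFB3 and 1 for PFKFB4. HIF binds the core letters ACGTG and GCGTG. Both motifs were searched on both strands, and capitals mark each match. The windows are chr10:6144671-6144970 (PFKFB3, first start, plus strand), chr10:6202682-6202981 (PFKFB3, second start, plus strand) and chr3:48556754-48557053 (PFKFB4, minus strand), each written 5′ to 3′ in the direction of the gene.
PFKFB3 first start: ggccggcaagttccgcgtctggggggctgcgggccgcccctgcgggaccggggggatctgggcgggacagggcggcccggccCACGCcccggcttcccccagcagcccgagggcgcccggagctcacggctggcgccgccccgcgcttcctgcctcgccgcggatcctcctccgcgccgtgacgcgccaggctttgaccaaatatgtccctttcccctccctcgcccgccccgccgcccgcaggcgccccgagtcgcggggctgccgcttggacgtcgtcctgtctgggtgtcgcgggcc
PFKFB3 second start: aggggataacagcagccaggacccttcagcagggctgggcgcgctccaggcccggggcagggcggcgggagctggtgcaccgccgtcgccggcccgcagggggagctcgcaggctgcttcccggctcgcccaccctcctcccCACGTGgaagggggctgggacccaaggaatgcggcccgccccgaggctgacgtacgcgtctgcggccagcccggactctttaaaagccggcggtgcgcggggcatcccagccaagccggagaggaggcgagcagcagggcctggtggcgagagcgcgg
PFKFB4: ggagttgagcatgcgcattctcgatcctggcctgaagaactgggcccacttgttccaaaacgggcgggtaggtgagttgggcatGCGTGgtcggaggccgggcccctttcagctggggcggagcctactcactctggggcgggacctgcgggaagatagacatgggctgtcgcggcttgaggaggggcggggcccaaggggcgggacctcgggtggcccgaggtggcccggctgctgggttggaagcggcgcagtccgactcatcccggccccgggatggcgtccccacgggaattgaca
The second PFKFB3 window holds the palindrome CACGTG, which is read as ACGTG on each strand in 2 overlapping matches. The first PFKFB3 window and the PFKFB4 window hold 1 GCGTG match each, on the opposite strand in the former. Either motif is present in 48.4% of the 35116 promoters of this length, ACGTG alone in 21.4%, and 23.1% hold 2 or more matches. The 2 PFKFB1 windows hold neither motif, which says only that these letters are not in those windows.

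In HKC-8 cells PFKFB3 stood at 87.0, 96.0 and 68.7 CPM in the 3 normoxic samples and at 294, 324 and 238 CPM in the 3 hypoxic samples. In RCC4+VHL cells it stood at 225, 220 and 214 CPM in normoxia and at 357, 340 and 360 CPM in hypoxia. In HepG2 cells it stood at 12.3, 12.5 and 14.4 CPM in normoxia and at 196, 182 and 204 CPM in hypoxia. Every hypoxic sample was above every normoxic sample of its line, and the normoxic RCC4+VHL samples were above all 3 hypoxic HepG2 samples. The gene was deeply covered, with 542 to 31692 counts per sample. The log2 fold change was 1.77 (SE 0.15, adjusted p = 1.2e-04) in HKC-8 cells, 0.69 (SE 0.03, adjusted p = 7.46e-14) in RCC4+VHL cells and 3.89 (SE 0.08, adjusted p = 6.96e-13) in HepG2 cells by edgeR's quasi-likelihood test with Benjamini-Hochberg adjustment. These are fold changes of 3.41, 1.61 and 14.8.

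PFKFB4, whose product also acts as kinase and phosphatase on the same substrate, lies on GRCh37 at chromosome 3, 48555117 to 48599448, minus strand, with 14 exons and 469 codons in its main coding transcript. In HKC-8 cells it stood at 17.8, 21.8 and 22.3 CPM in normoxia and at 170, 149 and 148 CPM in hypoxia. In RCC4+VHL cells it stood at 4.09, 3.42 and 3.25 CPM in normoxia and at 57.4, 54.7 and 53.9 CPM in hypoxia. In HepG2 cells it stood at 9.47, 9.18 and 9.45 CPM in normoxia and at 197, 165 and 181 CPM in hypoxia. The groups were far apart in each line, and the lowest hypoxic sample of any line, in RCC4+VHL, was above the highest normoxic sample of any line, in HKC-8. The log2 fold change was 2.92 (SE 0.11, adjusted p = 1.8e-06) in HKC-8 cells, 3.95 (SE 0.07, adjusted p = 4.02e-22) in RCC4+VHL cells and 4.27 (SE 0.08, adjusted p = 5.08e-13) in HepG2 cells by edgeR's quasi-likelihood test. Among all genes tested, ordered from the highest log2 fold change, PFKFB4 ranked 66 of 13536 in HKC-8 cells, 11 of 12811 in RCC4+VHL cells and 32 of 13623 in HepG2 cells. PFKFB3 ranked 227, 591 and 43 in the same orders.

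PFKFB2, the heart and kidney isoform, lies on GRCh37 at chromosome 1, 207207711 to 207254369, plus strand, with 15 exons and 505 codons in its main coding transcript. In HKC-8 cells it stood at 16.9, 17.2 and 22.3 CPM in normoxia and at 10.9, 11.4 and 13.5 CPM in hypoxia. In RCC4+VHL cells it stood at 15.9, 15.0 and 14.9 CPM in normoxia and at 15.8, 14.5 and 14.0 CPM in hypoxia. In HepG2 cells it stood at 22.3, 21.04 and 26.9 CPM in normoxia and at 15.3, 16.7 and 16.8 CPM in hypoxia. Hypoxic samples were below all normoxic samples in HKC-8 and HepG2 cells, while the groups overlapped in RCC4+VHL cells. The log2 fold change was -0.65 (SE 0.14, adjusted p = 0.0147) in HKC-8 cells and -0.52 (SE 0.10, adjusted p = 8.46e-04) in HepG2 cells by edgeR's quasi-likelihood test. For RCC4+VHL cells it was -0.04 (95% interval -0.18 to 0.10, adjusted p = 0.666) by the same test. Without replicate 1 of the hypoxic HKC-8 samples, the adjusted p of PFKFB2 in that line was 0.0713, at a log2 fold change of -0.59, and over all 12 alternative settings it ran from 2.22e-04 to 0.0713.

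PFKFB1, the liver and muscle isoform, lies on GRCh37 at chromosome X, 54959394 to 55024967, minus strand, with 14 exons and 471 codons in its main coding transcript. It had 3, 13 and 2 counts in the normoxic and 8, 11 and 15 counts in the hypoxic HKC-8 samples, and no count in any of the 6 RCC4+VHL samples. In HepG2 cells it stood at 2.38, 2.17 and 2.77 CPM in normoxia and at 2.38, 1.61 and 2.04 CPM in hypoxia, from 74 to 116 counts per sample. It was the member expressed chiefly in the hepatocyte line, and hypoxic and normoxic HepG2 samples overlapped. It fell below the filter on low counts in HKC-8 and RCC4+VHL cells and was not tested there. In HepG2 cells its log2 fold change was -0.28 (95% interval -0.66 to 0.10, adjusted p = 0.279) by edgeR's quasi-likelihood test.

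**Figure D1:**
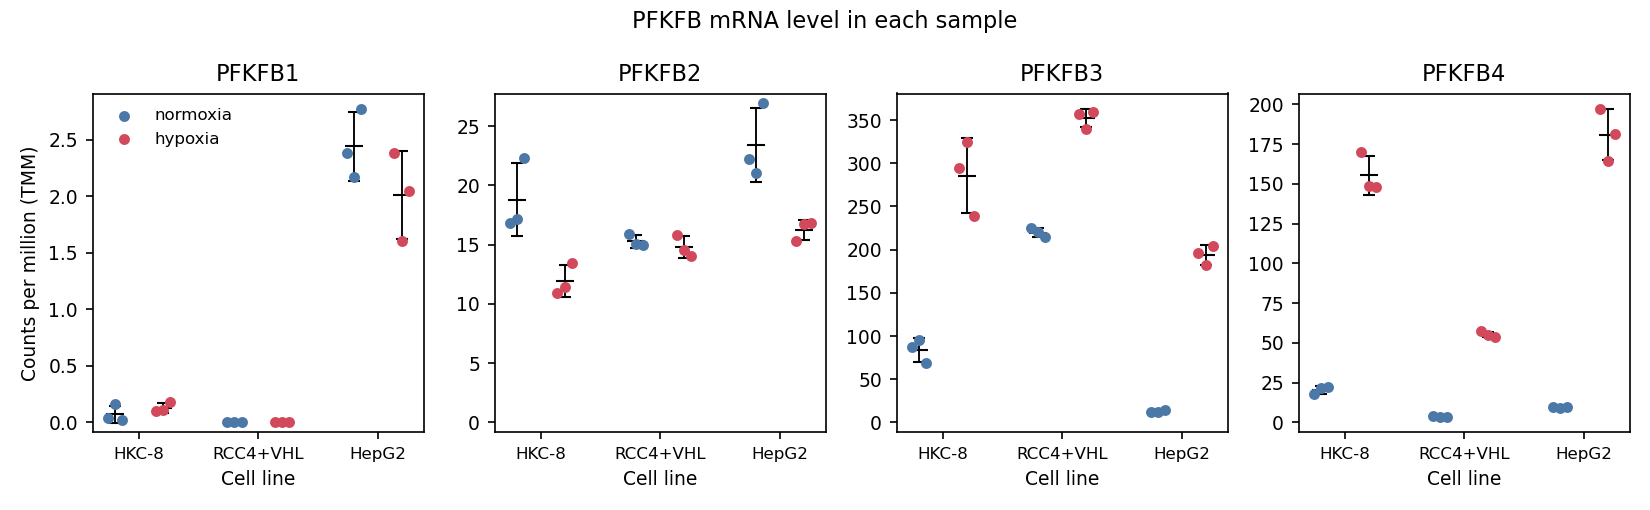
TMM-scaled CPM (y axis, linear, a separate scale for each gene) of the 4 PFKFB genes in each of the 18 samples, by cell line (x axis). Points are single samples, and black marks give the mean and SD of 3. Hypoxic and normoxic samples are apart for PFKFB3 and PFKFB4 in each line, and PFKFB1 is at 0 in RCC4+VHL cells.

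Of the members tested, 2 of 3 were called higher and 1 lower in HKC-8 cells, where 11.2% of 13536 genes were called higher (1522) and 9.12% lower (1235) at an adjusted p under 0.05 by edgeR's quasi-likelihood test. When same-numbered HKC-8 samples were blocked as pairs, 2836 genes rose and 2919 fell by the same test, and the calls of the members were as before. Leaving out 1 HKC-8 sample gave from 687 to 1794 genes higher and from 326 to 1489 lower, the fewest without normoxic replicate 1. Of the 3 members tested in RCC4+VHL cells, 2 were called higher and 0 lower, against 25.9% (3318) and 24.2% (3105) of 12811 genes. In HepG2 cells 2 of 4 were called higher and 1 lower, against 19.9% (2708) and 19.2% (2621) of 13623 genes. The spread between replicates, as edgeR's biological coefficient of variation, was 0.135 in HKC-8, 0.0437 in RCC4+VHL and 0.0733 in HepG2 cells. Genes whose log2 value moved by 1 or more, up or down, numbered 789, 434 and 677. RCC4+VHL cells thus had the largest shares called, with the smallest spread and the fewest such genes. The shares called do not rank the lines by breadth of response. The called members were PFKFB3 and PFKFB4 in the higher direction in each line, and PFKFB2 in the lower direction in HKC-8 and HepG2 cells. With 4 genes, the counts of called members are set beside the shares of all genes as a description. For the separation of hypoxic from normoxic samples in single members, the share of all genes that separate so is not given here.

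**Figure D2:**
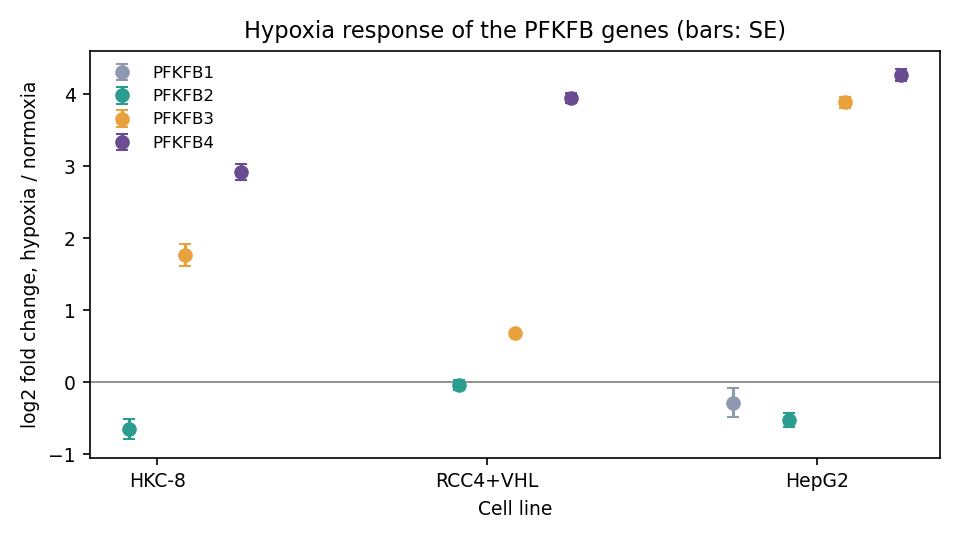
Log2 fold change of hypoxia over normoxia (y axis) of each PFKFB gene tested, by cell line (x axis), with bars of 1 SE from edgeR's quasi-likelihood fit. PFKFB4 lies between 2.92 and 4.27 in the 3 lines, PFKFB3 between 0.69 and 3.89, and PFKFB2 and PFKFB1 at or below 0.

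The size of the response differed between lines for PFKFB3. HepG2 and HKC-8 cells share the labelled exposure, but the titles of their hypoxic samples read 0.5 and 0.1. If the titles hold, line and oxygen level cannot be told apart in this comparison. The log2 response of PFKFB3 was 2.12 larger in HepG2 cells (SE 0.18, adjusted p = 2.96e-06) by the interaction of line and oxygen in edgeR's quasi-likelihood test. That of PFKFB4 was 1.36 larger (SE 0.14, adjusted p = 1.98e-05). For PFKFB2 the difference was 0.13 (95% interval -0.23 to 0.49, adjusted p = 0.736), and for PFKFB1 it was -1.15 (95% interval -2.40 to 0.10, adjusted p = 0.297). In this comparison 9.30% of 15046 genes were called in either direction. The difference for PFKFB1 rests on 2 to 15 counts per HKC-8 sample; without replicate 2 of the normoxic HKC-8 samples it was -2.40, with an adjusted p of 0.0276, in a range from 0.0276 to 0.52 over 17 alternatives. With the replicate block the comparison called 1656 genes larger in HepG2 cells and 1363 smaller, instead of 755 and 644.

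In RCC4+VHL cells the log2 response of PFKFB3 was smaller than in HKC-8 cells by 1.10 (difference -1.10, SE 0.15, adjusted p = 4.97e-04), while that of PFKFB4 was larger by 1.01 (SE 0.14, adjusted p = 5.93e-04) in edgeR's interaction test, which called 15.2% of 14203 genes. PFKFB2 differed by 0.59 (SE 0.17, adjusted p = 0.0334), and this call was lost when any of 5 single samples was left out: replicate 1 of hypoxic HKC-8, any of the 3 normoxic RCC4+VHL samples, or replicate 1 of hypoxic RCC4+VHL, with adjusted p from 0.0555 to 0.0728. With the replicate block 2179 genes were called larger and 1892 smaller, instead of 1118 and 1036. Against HepG2 cells, the response of RCC4+VHL cells differed by -3.21 for PFKFB3 (SE 0.08, adjusted p = 1.41e-15), by 0.47 for PFKFB2 (SE 0.12, adjusted p = 0.0089; 0.48 and 0.0655, not called, with all 18 samples in 1 fit, and 0.00336 to 0.0655 over 18 alternatives) and by -0.33 for PFKFB4 (SE 0.12, adjusted p = 0.0487), where 22.6% of 14813 genes were called by edgeR's interaction test. The PFKFB4 difference lay near the threshold and was called under 7 of 18 alternatives, with adjusted p from 0.0173 to 0.238. If the labels hold, RCC4+VHL cells had another oxygen level and duration, and line and exposure cannot be told apart in these comparisons; if the article holds, the exposure was the same. The 3 comparisons share samples.

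In normoxia PFKFB3, PFKFB4 and PFKFB2 each ordered the lines differently. PFKFB1 was highest in HepG2 cells, and its few or absent counts in HKC-8 and RCC4+VHL cells do not order those lines. PFKFB3 was highest in RCC4+VHL cells (220 ± 5.19 CPM), then in HKC-8 cells (83.9 ± 13.9 CPM) and lowest in HepG2 cells (13.1 ± 1.17 CPM; SD, n = 3 each). PFKFB4 was highest in HKC-8 cells (20.6 ± 2.51 CPM), then in HepG2 cells (9.37 ± 0.166 CPM) and lowest in RCC4+VHL cells (3.59 ± 0.443 CPM). PFKFB2 spanned a narrow range, from 15.3 ± 0.516 CPM in RCC4+VHL cells through 18.8 ± 3.07 CPM in HKC-8 cells to 23.4 ± 3.11 CPM in HepG2 cells. The line with the highest normoxic PFKFB3 level thus had the lowest PFKFB4 level.

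Compared with HKC-8 cells in normoxia, HepG2 cells had lower PFKFB3 (log2 difference -2.66, SE 0.13, adjusted p = 1.54e-09) and lower PFKFB4 (-1.12, SE 0.12, adjusted p = 3.84e-06) and higher PFKFB1 (5.09, SE 0.47, adjusted p = 6.84e-07) by edgeR's quasi-likelihood test. The size of the PFKFB1 difference rests on 2 to 13 counts per HKC-8 sample, and it ran from 4.64 to 6.32 over 10 alternatives, the largest without HKC-8 replicate 2. RCC4+VHL cells had higher PFKFB3 (1.40, SE 0.10, adjusted p = 6.76e-07) and lower PFKFB4 (-2.52, SE 0.14, adjusted p = 8.91e-08) than HKC-8 cells by the same test with adjusted p. Against HepG2 cells, RCC4+VHL cells had higher PFKFB3 (4.09, SE 0.07, adjusted p = 3.61e-15), lower PFKFB4 (-1.36, SE 0.12, adjusted p = 1.6e-07) and lower PFKFB2 (-0.59, SE 0.09, adjusted p = 4.83e-05) by edgeR's test. PFKFB1 was at least 34.8-fold lower in normoxic RCC4+VHL than in HepG2 cells, taking 3 counts per library as the floor for a count of 0, which covers counting error only. PFKFB2 differed between HepG2 and HKC-8 cells by 0.34 (SE 0.14, adjusted p = 0.0386) and between RCC4+VHL and HKC-8 cells by -0.29 (SE 0.12, adjusted p = 0.0467). The first of these was lost without HKC-8 replicate 1 or 2 or HepG2 replicate 1 or 3 (adjusted p up to 0.187), and the second without HKC-8 replicate 3 or any of the 3 RCC4+VHL replicates (adjusted p up to 0.121). These lines differed at most genes: 82.2% of 14427 genes tested were called between HepG2 and HKC-8 cells, 85.0% of 13755 between RCC4+VHL and HKC-8 cells and 87.1% of 14241 between RCC4+VHL and HepG2 cells, so a called difference in a member is the usual case.

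In hypoxia the order was described and not tested. PFKFB3 ran from 340 to 360 CPM in RCC4+VHL cells, from 238 to 324 CPM in HKC-8 cells and from 182 to 204 CPM in HepG2 cells, with no overlap between neighbouring lines. PFKFB4 ran from 165 to 197 CPM in HepG2 cells and from 148 to 170 CPM in HKC-8 cells, which overlapped, and from 53.9 to 57.4 CPM in RCC4+VHL cells.

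To compare the genes with each other, CPM were divided by the length of the longest coding transcript, in kilobases, which is 2039, 7073, 4524 and 3499 bases for PFKFB1 to PFKFB4. The summed per-kilobase level of the 4 genes differed between lines in normoxia, with 24.7 to 29.96 in HKC-8 samples, 50.4 to 53.1 in RCC4+VHL samples and 9.43 to 11.1 in HepG2 samples (CPM per kilobase). In hypoxia the sums lay between 97.1 and 116 in HKC-8 cells, between 92.9 and 97.6 in RCC4+VHL cells and between 90.4 and 103 in HepG2 cells. The hypoxic ranges of the lines overlapped, and the normoxic ranges did not. The ratio of hypoxic to normoxic mean sums was 4.03 in HKC-8 cells, 1.85 in RCC4+VHL cells and 9.72 in HepG2 cells.

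The member that made up most of this sum depended on the line. PFKFB3 held 72.0, 70.8 and 61.4% of it in normoxic HKC-8 samples and 56.5, 61.9 and 54.3% in hypoxic ones. In RCC4+VHL cells it held 93.6, 94.0 and 94.0% in normoxia and 80.9, 81.0 and 82.1% in hypoxia, so PFKFB3 was the main member in both kidney lines at either oxygen level. In normoxic HepG2 cells the sum was spread over all 4 genes, with mean shares of 11.9% (SD 0.512) for PFKFB1, 32.8% (SD 1.503) for PFKFB2, 28.7% (SD 0.751) for PFKFB3 and 26.7% (SD 1.94) for PFKFB4 (n = 3). This spread depends on the length scale, since without division by length PFKFB2 held 48.4%, PFKFB3 27.1%, PFKFB4 19.5% and PFKFB1 5.04% there. In hypoxic HepG2 cells PFKFB4 held 54.7, 52.0 and 51.6% and PFKFB3 held 42.1, 44.5 and 45.0%, and the shares of the other members were 2.36% (PFKFB2) and 1.00% (PFKFB1) on average. A share falls when other members rise, and the PFKFB1 level itself was not called different in these cells. The order of these 2 genes depends on the length scale, since without division by length PFKFB4 held 46.0% and PFKFB3 49.4% there. The share of PFKFB4 was larger in hypoxia by 18.95 percentage points in HKC-8 cells, 14.5 in RCC4+VHL cells and 26.1 in HepG2 cells, each at p = 0.1 by a two-sided exact permutation test of 3 against 3 samples, the smallest p that design can give (adjusted p = 0.122 over 11 tests). The share of PFKFB3 changed by -10.5 points in HKC-8 cells (exact p = 0.2, adjusted p = 0.22, by a permutation that leaves the pairing out; it fell within all 3 same-numbered pairs), by -12.5 points in RCC4+VHL cells and by 15.2 points in HepG2 cells (exact p = 0.1 each, adjusted p = 0.122). The per-kilobase ratio of PFKFB4 to PFKFB3 was 0.0211 ± 0.00213 in normoxic and 0.203 ± 0.00816 in hypoxic RCC4+VHL cells, 0.326 ± 0.0831 and 0.715 ± 0.109 in HKC-8 cells, and 0.930 ± 0.0760 and 1.21 ± 0.0831 in HepG2 cells (SD, n = 3 each).

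**Figure D3:**
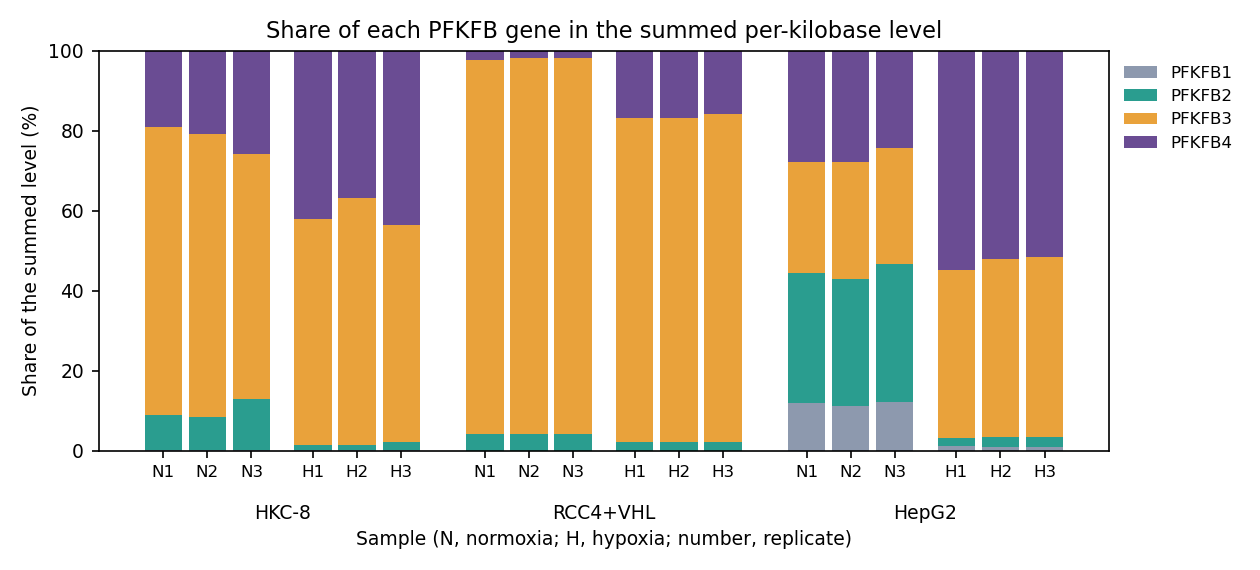
Share in percent (y axis) of each PFKFB gene in the summed CPM per kilobase of the 4 genes, for each of the 18 samples (x axis; N for normoxia, H for hypoxia, with the replicate number). PFKFB3 fills most of each bar in HKC-8 and RCC4+VHL cells, and PFKFB4 holds 51.6 to 54.7% in hypoxic HepG2 cells.

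The enzymes that answer to fructose 2,6-bisphosphate were read in the same fits. Of the PFK-1 subunit genes, PFKL and PFKP were called higher in hypoxia in each line. PFKL, the liver-type subunit, went from 73.3 ± 5.46 to 174 ± 21.5 CPM in HKC-8 cells (SD, n = 3; log2 fold change 1.25), and its log2 fold change was 0.58 in RCC4+VHL and 0.95 in HepG2 cells. PFKP, the platelet-type subunit, had log2 fold changes of 0.85, 0.77 and 1.26 in HKC-8, RCC4+VHL and HepG2 cells. PFKM, the muscle-type subunit, was called lower in HKC-8 cells (-0.56, SE 0.09) and RCC4+VHL cells (-0.18, SE 0.04), and in HepG2 cells, at 2.04 ± 0.362 CPM in normoxia (SD, n = 3), its log2 fold change of 0.12 was not called (SE 0.19, adjusted p = 0.671 by edgeR's quasi-likelihood test). The median log2 fold change of the 3 genes was 0.85, 0.58 and 0.95, beside 0.00 over all genes tested in each line.

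Of the fructose bisphosphatase genes, TIGAR alone was well expressed. FBP1, the liver enzyme of gluconeogenesis, was at or below 0.150 CPM on average in each group and had no count in RCC4+VHL cells, and FBP2, the muscle form, was at or below 0.266 CPM. TIGAR, a phosphatase related to the PFKFB phosphatase domain and listed under its older symbol C12orf5, was called lower in HepG2 cells (log2 fold change -0.68, SE 0.07, adjusted p = 7.08e-06) and RCC4+VHL cells (-0.20, SE 0.05, adjusted p = 0.00325) by edgeR's quasi-likelihood test. In the 1 fit of all 18 samples, TIGAR was not called in RCC4+VHL cells, nor were PFKM and the HIF-2-alpha gene EPAS1. In HKC-8 cells its log2 fold change was -0.11 (SE 0.10, adjusted p = 0.43 by the same test with edgeR). FBP2 was the other gene of this list tested in HepG2 cells, and it was not called (-0.22, SE 0.44).

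Most other glycolytic enzymes rose. Of 21 genes in the list, 14 of 16 tested were called higher and 0 lower in HKC-8 cells (median log2 fold change 0.78), 13 of 17 higher and 3 lower in RCC4+VHL cells (0.69) and 13 of 18 higher and 0 lower in HepG2 cells (1.19), beside a median of 0.00 over all genes tested in each line. The shares of all genes called higher and lower were 11.2% and 9.12%, 25.9% and 24.2%, and 19.9% and 19.2%. With the replicate block, 1 of these genes was called lower in HKC-8 cells, and with all 18 samples in 1 fit 0 were called lower in RCC4+VHL cells. In HepG2 cells 1 was called lower with the block, without the count filter, or without normoxic replicate 1. The largest log2 fold changes in HKC-8 cells were those of the enolase gene ENO2 (2.36), the phosphoglycerate kinase gene PGK1 (1.82) and the hexokinase gene HK2 (1.49). The largest in RCC4+VHL cells were those of ENO2 (2.56), the aldolase gene ALDOC (2.21) and HK2 (2.13), and in HepG2 cells those of HK1 (2.70), ALDOC (2.69) and PGK1 (2.12). The log2 fold change of PFKFB4 was above that of each of these genes in its line, and that of PFKFB3 was above them in HepG2 cells, below all 3 in RCC4+VHL cells and between HK2 and PGK1 in HKC-8 cells.

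Genes for kinases, ubiquitin ligases and a methyltransferase that act on PFKFB proteins were also read. Of those tested, 16, 7 and 13 were not called in HKC-8, RCC4+VHL and HepG2 cells. Of 20 genes, 19 were tested in each line, with 2 called higher and 1 lower in HKC-8 cells, 6 and 6 in RCC4+VHL cells and 4 and 2 in HepG2 cells, beside 11.2% and 9.12%, 25.9% and 24.2%, and 19.9% and 19.2% of all genes tested. The medians were -0.07, -0.03 and 0.02, beside 0.00 over all genes tested. With the replicate block 7 of them were called lower in HKC-8 cells, and from 1 to 6 under the other settings; with all 18 samples in 1 fit, 2 were called higher and 2 lower in RCC4+VHL cells. The called genes with the largest changes belonged to AMPK, the energy-sensing kinase that phosphorylates PFKFB2 and PFKFB3. Its catalytic subunit gene PRKAA2 rose in each line, with log2 fold changes of 0.38 in HKC-8, 0.45 in RCC4+VHL and 0.63 in HepG2 cells. The HKC-8 call of PRKAA2 was lost without replicate 1 or 2 of the normoxic or replicate 1 or 3 of the hypoxic samples, with adjusted p from 0.0804 to 0.119. The regulatory subunit gene PRKAG2 rose in HKC-8 (0.77) and RCC4+VHL cells (0.76), PRKAG1 fell in HKC-8 (-0.48) and HepG2 cells (-0.45), and PRKAB1 fell in RCC4+VHL (-0.38) and HepG2 cells (-0.35).

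**Figure D4:**
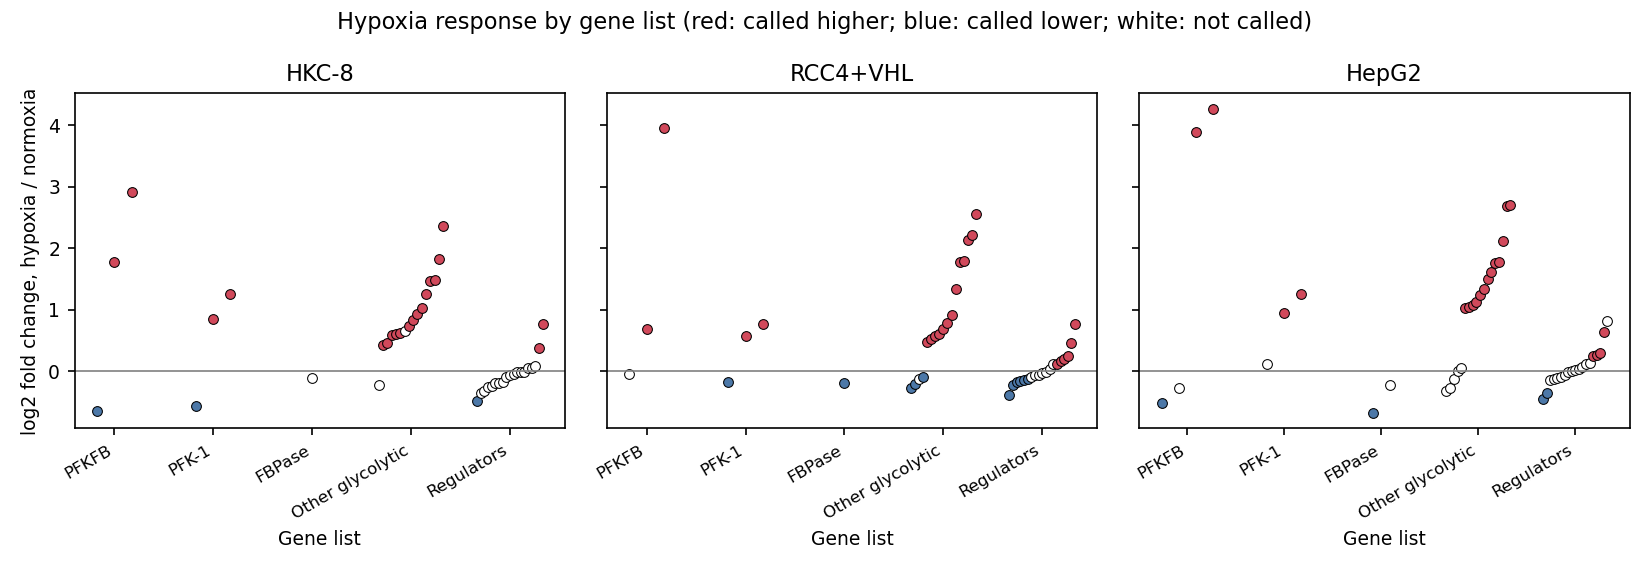
Log2 fold change of hypoxia over normoxia (y axis) of each tested gene of 5 gene lists (x axis) in the 3 cell lines; red points were called higher and blue points lower by edgeR's quasi-likelihood test, and white points were not called. PFKFB4 is the highest point of each panel, at 2.92, 3.95 and 4.27.

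The exposure was read from 10 genes known to respond to HIF. They were chosen with earlier results of these data known, so their tally is a description and no independent check. EGLN3 is also among the HIF pathway genes read below. All 10 were called higher in HKC-8 and HepG2 cells, and all 8 tested in RCC4+VHL cells. Their median log2 fold changes were 2.05, 3.09 and 2.69, beside 0.00 over all genes tested in each line. The largest were CA9, which encodes a carbonic anhydrase (4.92), NDRG1 (4.72) and BNIP3 (2.69) in HKC-8 cells, NDRG1 (3.74), ADM (3.29) and BNIP3 (3.26) in RCC4+VHL cells, and CA9 (8.45), the prolyl hydroxylase gene EGLN3 (5.30) and NDRG1 (3.56) in HepG2 cells. CA9 and EGLN3 were below the count filter in RCC4+VHL cells, at 0.0886 and 0.102 CPM in hypoxia. Among 10 genes of the HIF pathway itself, 4 of 9 tested were called higher and 1 lower in HKC-8 cells, 2 of 8 higher and 2 lower in RCC4+VHL cells and 3 of 9 higher and 1 lower in HepG2 cells, with medians of 0.27, 0.00 and 0.02. Of all genes tested, 11.2% and 9.12%, 25.9% and 24.2%, and 19.9% and 19.2% were called higher and lower in these lines. With the replicate block 2 were called lower in HKC-8 cells, and with all 18 samples in 1 fit 1 was called higher and 1 lower in RCC4+VHL cells and 0 lower in HepG2 cells, as without normoxic or hypoxic replicate 1 or 2 of HepG2. HIF1A mRNA fell in HKC-8 cells (-1.16, SE 0.08) and in RCC4+VHL cells (-0.21, SE 0.03), and EPAS1, which encodes HIF-2-alpha, rose in HKC-8 (1.23), RCC4+VHL (0.26) and HepG2 cells (0.39). EGLN1 was called higher in HKC-8 (1.12), RCC4+VHL (0.80) and HepG2 cells (1.42), and EGLN3 in HKC-8 (2.38) and HepG2 cells.

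The genes whose log2 CPM followed each member most closely were taken from the 15307 genes kept over all 18 samples. These correlations are descriptions over 18 samples that fall into 6 groups by line and oxygen. PFKFB3 was most like SYDE1 (Pearson's r = 0.987, Spearman's rho = 0.938), TBC1D9B (0.982, 0.975), FOSL2 (0.968, 0.930), GAPDH (0.959, 0.882) and FKBP9L (0.949, 0.893). PFKFB4 was most like BNIP3 (0.981, 0.934), ANKZF1 (0.979, 0.986), DDIT4 (0.967, 0.934), the histone demethylase gene KDM3A (0.966, 0.932) and P4HA1 (0.960, 0.957). PFKFB3 and PFKFB4 had r = 0.450 with each other over the levels and 0.864 after each gene was centred on its mean in each line. After that centring the closest genes were NFE2L1 (r = 0.993), CA9 (0.990) and FOSL2 (0.990) for PFKFB3, and the glycolytic and pyruvate-metabolism genes LDHA (0.993), PDK1 (0.992) and PGK1 (0.991) for PFKFB4. For PFKFB2 the levels were most like those of TBC1D22B (r = 0.888, rho = 0.928), CAMK2D (0.887, 0.734), SUOX (0.872, 0.761), C10orf88 (0.867, 0.820) and NUFIP1 (0.857, 0.837), and the centred values most like those of KIAA0196 (0.939), STRBP (0.938) and NUP107 (0.935). PFKFB2 ran against PFKFB3, with r = -0.850 over the levels and -0.812 after centring. PFKFB1 followed genes that were high in HepG2 cells, LOC100130872 (r = 0.992), TNFRSF10B (0.990), MAST4 (0.987), ABCF1 (0.986) and CHN2 (0.986), and its centred values, which rest on few counts outside HepG2, were closest to EXPH5 (0.806), LOC257358 (0.801) and KRT16 (0.760). Over the levels several of these centred neighbours had r of the other sign: EXPH5 -0.206, LOC257358 -0.794 and KRT16 -0.130 for PFKFB1, KIAA0196 -0.302 and NUP107 -0.347 for PFKFB2, and NFE2L1 -0.072 for PFKFB3.

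Genes beside the members on the chromosome were read as well. Of 10 such genes, 3 of 9 tested were called in HKC-8, 6 of 9 in RCC4+VHL and 5 of 10 in HepG2 cells. Beside them, 11.2% and 9.12%, 25.9% and 24.2%, and 19.9% and 19.2% of all genes tested were called higher and lower. PFKFB4 overlaps UCN2, on the same strand, through some of its annotated transcripts, and COL7A1 lies 2058 bases away. UCN2, which encodes a neuropeptide, was called higher in HKC-8 (log2 fold change 0.88, SE 0.14), RCC4+VHL (1.06, SE 0.14) and HepG2 cells (2.29, SE 0.28), from 9.87, 2.50 and 1.31 CPM in normoxia. COL7A1, a collagen gene, was also called higher in each line (0.51, 0.26 and 1.05), while SHISA5, on the other side, was called in RCC4+VHL cells alone (-0.25, SE 0.04). Neither neighbour of PFKFB3, RBM17 or PRKCQ, was called in any line. PFKFB2 overlaps YOD1, on the opposite strand, through some of its annotated transcripts. The main coding transcript of PFKFB2 starts at 207226620, past the end of YOD1 at 207226325. The counting notes do not state a strand setting, so reads of the overlap cannot be assigned to either gene with certainty. YOD1 was called lower in HKC-8 cells (-0.56, SE 0.09), as PFKFB2 was, and was not called in HepG2 cells, where PFKFB2 was. Its call in RCC4+VHL cells (0.20, SE 0.07) was lost under 5 alternatives. Of the outer neighbours of PFKFB2, C4BPB was called in RCC4+VHL (0.30, SE 0.10) and HepG2 cells (-0.50, SE 0.09) and C1orf116 in HepG2 cells (0.44, SE 0.16). TRO, next to PFKFB1, had no count in RCC4+VHL cells either, stood at 18.7 ± 4.41 and 11.4 ± 1.78 CPM in normoxic HKC-8 and HepG2 cells (SD, n = 3 each), and was called higher in HepG2 cells (0.42, SE 0.12). APEX2, on the other side, was at 41.4 ± 0.988 CPM in normoxic RCC4+VHL cells (SD, n = 3) and was called there (-0.14, SE 0.05). These smaller neighbour calls were unsteady: APEX2 was lost under 4 alternatives, C4BPB in RCC4+VHL cells under 3 and C1orf116 under 5, and SHISA5 and COL7A1 in RCC4+VHL cells and TRO in HepG2 cells were lost with all 18 samples in 1 fit.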

How the data were processed

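The authors sequenced polyadenylated RNA from stranded libraries, trimmed reads with Trim Galore 0.3.3, aligned them to GRCh37 with TopHat 2.0.8b and Bowtie 1.0.0, kept unique alignments with SAMtools 0.1.19, and counted reads per UCSC gene with HTSeq 0.5.4p3 in its strict intersection mode, by the submitters' processing notes and methods. The deposited values are these raw counts; the strand setting is not given in the sources used here. Everything from the counts on was computed with R 4.3.3, edgeR 4.0.16, DESeq2 1.42.0 and Python 3.11.15. Genes were kept by filterByExpr, scaled by TMM, and tested by edgeR's quasi-likelihood test with Benjamini-Hochberg adjustment over all genes tested, at 0.05; each comparison was fitted on the samples of its own lines, and the SE is the size of the log2 fold change divided by the square root of F. On simulated counts with known changes, from 4.19% to 12% of the calls of a comparison fell on unchanged genes, the upper value being above the 0.05 threshold. The simulation gave all groups the same baseline, changed a fixed number of genes and had no replicate pairs. Rates in the real data may therefore differ. Members and gene lists were chosen with earlier results of these data known. Named genes are the members, the 3 largest called changes of each list and line (all genes of lists of 3), the 5 genes most like each member (3 after centring) and the chromosomal neighbours. Marker genes, and values of a named gene in further lines, such as EGLN1 in HKC-8 cells, fall outside this rule. In HKC-8 cells same-numbered samples had r = 0.109, 0.453 and 0.447 over 13536 genes, and replicate 1 had a higher r with another number (0.116). The main tests left the numbers out, and pairs by number enter the fits only under the replicate block. Alternatives were DESeq2, median-of-ratios scaling, other count filters, 1 fit of 18 samples, the replicate block and leaving out each sample. Gene positions and lengths are from GENCODE (GRCh37), promoters from RefSeq.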

Additional observations from a re-analysis of the deposited data

Results flagged for a closer look

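Each of these values was singled out because the hypoxia response of a member differed between a pair of cell lines by edgeR's interaction test. HepG2 and HKC-8 cells share a labelled exposure, although the titles of their hypoxic samples read 0.5 and 0.1. Between these lines the difference in log2 response was 2.12 for PFKFB3 (SE 0.18, adjusted p = 2.96e-06) and 1.36 for PFKFB4 (SE 0.14, adjusted p = 1.98e-05). Between RCC4+VHL and HKC-8 cells it was -1.10 for PFKFB3 (SE 0.15, adjusted p = 4.97e-04), 1.01 for PFKFB4 (SE 0.14, adjusted p = 5.93e-04) and 0.59 for PFKFB2 (SE 0.17, adjusted p = 0.0334; called under 13 of 18 alternatives, adjusted p from 0.00122 to 0.0728). Between RCC4+VHL and HepG2 cells it was -3.21 for PFKFB3 (SE 0.08, adjusted p = 1.41e-15), 0.47 for PFKFB2 (SE 0.12, adjusted p = 0.0089; called under 17 of 18 alternatives, adjusted p from 0.00336 to 0.0655) and -0.33 for PFKFB4 (SE 0.12, adjusted p = 0.0487; called under 7 of 18 alternatives, adjusted p from 0.0173 to 0.238).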

How the results depend on the processing

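The hypoxia calls of PFKFB3 and PFKFB4 in each line, and of PFKFB2 in HepG2 cells, kept their direction and side of the threshold under all 12 alternatives each. Across the members, 119 of 120 alternative values for hypoxia against normoxia, 160 of 179 for the differences in response and 101 of 109 for the normoxic levels did so. Apart from fewer samples or genes in a fit, the cause of a change was not tested.

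With all 18 samples in 1 fit, 2503 genes were higher and 2510 lower in HKC-8 cells and 1867 and 1419 in RCC4+VHL cells. The differences in response then called 1209 and 1010 genes (HepG2 minus HKC-8) and 925 and 961 (RCC4+VHL minus HepG2), and PFKFB2 (0.48, adjusted p = 0.0655) and PFKFB4 (-0.33, adjusted p = 0.15) were no longer called in the latter by edgeR; over their alternatives adjusted p ran from 0.00336 to 0.0655 and from 0.0173 to 0.238. With the replicate block, edgeR called 2836 genes higher and 2919 lower in HKC-8 cells, 1656 and 1363 for HepG2 minus HKC-8 and 2179 and 1892 for RCC4+VHL minus HKC-8; it changed none of the members' 20 calls. In RCC4+VHL and HepG2 cells same-numbered samples had r from -0.0103 to 0.0333 and from 0.0617 to 0.184. There the block called 3351 higher and 3143 lower, and 2951 and 2906; by highest r, all 3 HepG2 replicates matched their own number, as did HKC-8 replicates 2 and 3 but not 1, and RCC4+VHL replicate 2 but not 1 and 3.

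Leaving out 1 sample at a time gave 687 to 1794 genes higher and 326 to 1489 lower in HKC-8 cells. The lowest counts came without normoxic replicate 1 (687, 326) or 2 (933, 522) or hypoxic replicate 1 (750, 342), and 675 were lower without hypoxic replicate 3. For HepG2 minus HKC-8 it gave 481 to 932 larger (492, 481 and 501 without HepG2 normoxic replicate 2 and hypoxic replicates 1 and 3) and 430 to 1000 smaller (1000 without HKC-8 normoxic replicate 3). For RCC4+VHL minus HKC-8, 667 to 1399 were smaller (683, 667 and 673 without RCC4+VHL normoxic replicate 2 and hypoxic replicates 2 and 3). The log2 value of PFKFB2 lay between -0.75 and -0.51 in the HKC-8 line, from -0.05 to 0.24 for HepG2 minus HKC-8 (reversed without HKC-8 normoxic replicate 3, never called), from 0.45 to 0.70 for RCC4+VHL minus HKC-8, and in normoxia from 0.22 to 0.49 (HepG2 against HKC-8) and from -0.37 to -0.14 (RCC4+VHL against HKC-8). PFKFB4 ranged from -0.39 to -0.22 for RCC4+VHL minus HepG2 and PFKFB1 from -2.40 to -0.73 for HepG2 minus HKC-8. In HepG2 cells PFKM ranged from -0.01 (without normoxic replicate 3) to 0.26, and FBP2 from -0.46 to 0.03 (without hypoxic replicate 2), neither called.

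Uncentred, the genes closest to PFKFB1, PFKFB2 and PFKFB3 after centring had r = -0.206 (EXPH5), -0.302 (KIAA0196) and -0.072 (NFE2L1). Leaving out 1 sample, the change in the share of PFKFB1 in HKC-8 cells ran from -0.103 to 0.00585 points (the latter without normoxic replicate 2). Of the list counts, 404 of 432 stayed within 1.5 times, and 208 of 216 list medians moved by under 0.1. In RCC4+VHL cells the 1 fit of 18 samples lost the calls of C12orf5 (adjusted p = 0.0852, edgeR), PFKM (0.0894) and EPAS1 (0.0625), and YOD1 was lost under 5 of 12 alternatives (0.0507 to 0.121). Depth limits PFKFB1, with 0 to 15 counts outside HepG2 cells.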
